A study of Mus musculus with 6 samples.

Results

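Probes named for exons of long intergenic noncoding RNAs (lincRNAs) in mouse genome build mm9 were compared in the spleen between a mouse model of multiple sclerosis, experimental autoimmune encephalomyelitis (EAE), and control mice. The members are all probes whose name starts with MM9LINCRNAEXON, and there were 83 of them among 60915 non-control probes on the array. The name gives a number and a strand, and 50 of the probes were on the plus strand and 33 on the minus strand. They covered 71 numbered exons between 10101 and 12051, of which 12 had a probe on each strand. Genome coordinates and probe sequences were not used here, so each exon is known by its name alone. The strand is given as the name has it, and the labels do not say whether the labelling keeps the strands of RNA apart. After its first mention a probe is given by its number and strand, so that 10664+ stands for MM9LINCRNAEXON10664+_P1.

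All 6 mice were female C57BL/6 animals aged 12 weeks, and each spleen had its own 1-colour (Cy3) array. EAE was induced in 3 mice with 2 mg/mL of a myelin oligodendrocyte glycoprotein (MOG) peptide plus 200 ng of pertussis toxin, by the tail vein. The peptide is called MOG33-35 in the sample titles and MOG35-55 in the treatment protocol. In the 3 control mice phosphate-buffered saline (PBS) replaced the peptide, and whether they were given the toxin is unsaid in the labels. EAE is driven by T cells primed in peripheral lymphoid organs, and the labels give neither a disease score nor the day on which the spleens were taken.

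LincRNAs are transcribed from loci between protein-coding genes, are usually spliced and do not encode proteins. Many are present at lower levels than mRNAs and in fewer cell types, and some act on chromatin or on neighbouring genes. A locus can be transcribed from both strands, and the RNAs of opposite strands are different molecules with their own promoters. In the spleen, an organ of B cells, T cells, myeloid cells and, in mice, red cell precursors, a lincRNA may come from 1 cell type. In RNA of a whole spleen, fewer cells of a type and less RNA per cell cannot be told apart. The labelled tissue was not checked against cell markers here.

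The EAE arrays were dimmer, with a 75th percentile of the signal of 278 to 394 against 429 to 568 in PBS. Values are therefore given as log2 signal minus the 75th percentile of the array, called the scaled level, unless the unscaled signal is named. One scan held the PBS arrays with EAE 1 and EAE 2, called the shared scan below, and another held EAE 3. A probe was tested if it was well above background, by the scanner software's flag, on at least 3 of the 6 arrays.

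Of the 83 probes 40 (48.2%) were tested, against 67.6% of all probes, 31.4% of the 649 probes named for mouse lincRNAs and 29.8% of the 1104 named for human lincRNAs. In EAE spleens 6 of the 40 rose and 1 fell (limma, adjusted p under 0.05 over all 41178 tested probes). The share called was 17.5%, beside 8.80% of all tested probes. Both shares moved with the arrays used: without PBS 1, PBS 2 or PBS 3 they were 15% beside 3.76%, 12.5% beside 3.43% and 15% beside 4.30%. Without EAE 2 they were 17.5% beside 11.3%. By direction it was 15.0% higher beside 6.13%, and 2.50% lower beside 2.67%. With 40 probes each call moves the share by 2.50 percentage points, and the difference between the shares was not tested. Some other measures lay near those of all probes. An unadjusted p under 0.05 was found for 25% of the 40 and 26.3% of all. The scaled levels of the groups did not overlap for 13 of the 40 (32.5%, beside 33.0% of all tested probes). Of these, 7 were higher in EAE (17.5%, beside 19.4%) and 6 lower (15.0%, beside 13.7%). Probes named for mouse lincRNAs were called in 7.35% and those named for human lincRNAs in 9.12% of tested probes. A change of at least 2-fold in either direction was found for 17.5% of the 40, beside 11.2% of all tested probes. For tested probes named for mouse and human lincRNAs it was 17.2% and 19.5%.

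The probes that rose were MM9LINCRNAEXON11125+_P1, MM9LINCRNAEXON11382+_P1, MM9LINCRNAEXON10136+_P1, MM9LINCRNAEXON10664-_P1, MM9LINCRNAEXON11641+_P1 and MM9LINCRNAEXON10171+_P1, by 1.99-fold to 5.76-fold. The probe that fell was MM9LINCRNAEXON10664+_P1, the opposite strand of one that rose. All 6 arrays of each of these probes were well above background, apart from 1 PBS array of 11641+. By strand, 5 plus-strand probes rose and 1 fell among 22 tested, and 1 minus-strand probe rose among 18 tested. Over all tested probes 6.13% were called higher and 2.67% lower, and a difference between the strands was not tested.

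Exon 11125+ had the largest change of the 40. Its scaled level was 0.58, 1.70 and 1.1 on PBS 1 to 3 and 3.66, 3.35 and 3.94 on EAE 1 to 3. The groups were far apart, and PBS 2 was the highest control. The mean was 1.13 ± 0.56 (SD, n = 3) in PBS and 3.65 ± 0.30 in EAE, a log2 difference of 2.53 ± 0.31 (SE) or 5.76-fold (limma adjusted p = 0.00311). The unscaled signal ranged from 740 to 1842 in PBS and from 3358 to 6058 in EAE, so it rose on the dimmer arrays also before scaling. Within the shared scan the log2 difference was 2.38.

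Exon 10136+ was measured at -0.75, -1.08 and -0.83 in PBS and at 1.02, 0.51 and 0.92 in EAE. Replicates of a group lay close together, and the lowest EAE array was more than 1 log2 unit above the highest PBS array. The log2 difference was 1.70 ± 0.21 (SE), 3.25-fold (limma adjusted p = 0.00322), and 1.65 within the shared scan. The unscaled signal ranged from 242 to 295 in PBS and from 467 to 745 in EAE.

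Exon 11382+ was measured at -2.58, -2.36 and -2.59 in PBS and at -1.32, -0.20 and -0.13 in EAE. EAE 1 was well below the other EAE arrays and still above all controls. The mean was -2.51 ± 0.13 (SD, n = 3) in PBS and -0.55 ± 0.67 in EAE. The log2 difference was 1.96 ± 0.33 (SE), 3.89-fold (limma adjusted p = 0.0122), and 1.75 within the shared scan. Before scaling the groups nearly met, with a signal of 111.01 on EAE 1 and 110.92 on PBS 2. Leaving out PBS 1 or PBS 2 ended the call, with adjusted p of 0.0529 and 0.0504 and log2 differences of 1.92 and 2.04.

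Exon 11641+ was dim. Its scaled level was -3.81, -3.99 and -4.09 for PBS, then -2.55, -2.08 and -2.44 for EAE, with no overlap. The log2 difference was 1.61 ± 0.20 (SE), 3.05-fold (limma adjusted p = 0.00330), and 1.65 within the shared scan. The unscaled signal ranged from 25.2 to 35.8 in PBS and from 47.3 to 77.9 in EAE, and the lowest signals flagged as well above background lay between 21.5 and 27.2 on the 6 arrays. The log2 difference was 0.90 (limma adjusted p = 0.00498) under an alternative called normexp below, which took median signals, a normal-exponential model of the background and an added offset of 50. The parts of that alternative were not tried one by one. The log2 differences of 11125+, 10136+, 11382+ and 10664- were also smaller with it, at 2.39, 1.51, 1.42 and 1.41.

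Exon 10171+ gave the weakest of the 7 calls. It was measured at -3.63, -3.53 and -4.02 in PBS and at -2.89, -2.85 and -2.45 in EAE. The scaled groups did not overlap, whereas the unscaled signals did, with 26.5 to 49.3 on PBS arrays and 37.4 to 72.0 on EAE arrays. The log2 difference was 1.00 ± 0.22 (SE), 1.99-fold (limma adjusted p = 0.0329). With normexp it was 0.62 (limma adjusted p = 0.0138). The scanner software's own error for a single spot of this probe was 12.3% to 21.7% of the signal, against 10.0% to 10.1% for 10664+ and 10664-. The call was lost without any 1 of PBS 1 (adjusted p = 0.0951), PBS 2 (0.0875), PBS 3 (0.133), EAE 1 (0.0503) or EAE 3 (0.0605), and held without EAE 2 (0.0423). The log2 difference without EAE 3, which is the value within the shared scan, was 0.86.

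Of the 12 exons with probes on both strands, 4 had both probes tested. Exon 10664 was the only one of these at which both strands passed the test, and they moved in opposite directions. The plus-strand probe 10664+ was measured at 5.17, 5.61 and 5.27 in PBS and at 4.20, 3.64 and 3.84 in EAE. All EAE arrays were below all PBS arrays by about 1 log2 unit or more. Its log2 difference was -1.45 ± 0.22 (SE, n = 3 per group), 2.74-fold lower in EAE (limma adjusted p = 0.00817). The minus-strand probe 10664- was measured at -0.10, -0.04 and -0.04 in PBS and at 1.47, 1.89 and 1.34 in EAE. Controls were nearly identical, and every EAE array was above them. Its log2 difference was 1.62 ± 0.20 (SE), 3.08-fold higher in EAE (limma adjusted p = 0.00328). EAE 2 had both the lowest plus-strand and the highest minus-strand level.

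The unscaled signals of the 10664 probes moved the same way. The plus-strand signal ranged from 16508 to 27759 in PBS and from 4114 to 5629 in EAE, and the minus-strand signal ranged from 418 to 554 in PBS and from 768 to 1218 in EAE. Within the shared scan the log2 differences were -1.43 for 10664+ and 1.73 for 10664-. With quantile normalization in place of the percentile scaling they were -1.715 and 1.586. Both calls held with each array left out, with adjusted p of 0.00971 to 0.0444 for 10664+ and 0.00610 to 0.0223 for 10664-.

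Whether the EAE change differed between strands was tested within arrays, at the 4 exons with both probes tested. Subtracting one probe from the other on the same array removes the scaling and any brightness factor shared by the array. An additive background does not cancel in this way, which limits the exons with a dim probe, 11641 and 11382. At 10664 the change of the plus strand minus that of the minus strand was -3.08 ± 0.32 (SE) on the log2 scale. At 11641 it was 1.80 ± 0.38 and at 11382 it was 1.57 ± 0.39, with the plus strand moving up more than the minus strand. At 11712 it was -0.48 ± 0.21. The within-array differences of the groups did not overlap at any of these 4 exons. At 11712 the margin was narrow, with 0.442 on PBS 1 and 0.433 on EAE 1. The share of other probe pairs without overlap was not measured, and for single probes it was 33.0% of all tested. The exact two-sided permutation p was 0.1 at each, and 0.1 after Benjamini-Hochberg adjustment over the 4, which is the smallest that 3 against 3 arrays allow.

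The minus strands of 11382 and 11641 did not pass the test. MM9LINCRNAEXON11382-_P1 was at -3.44, -3.63 and -3.68 in PBS and at -3.22, -3.24 and -3.12 in EAE. Every EAE array was above every PBS array by a small step, with a log2 difference of 0.39 ± 0.17 (limma adjusted p = 0.199). Its unscaled signal was 33.5 to 45.9 on PBS arrays and 29.7 to 45.4 on EAE arrays, which overlap. MM9LINCRNAEXON11641-_P1 was at -2.85, -3.04 and -2.30 in PBS and at -2.68, -2.59 and -3.48 in EAE. The groups overlapped, the log2 difference was -0.19 ± 0.31 (adjusted p = 0.735), and its sign turned within the shared scan (0.091) and with normexp (0.28). With normexp the strand differences were 0.98 at 11382, 0.62 at 11641, -0.28 at 11712 and -2.93 at 10664, so all 4 kept their direction and were smaller, at 10664 by little.

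Exon 11712 was measured on both strands without a call. MM9LINCRNAEXON11712+_P1 was at -1.78, -1.46 and -1.72 in PBS and at -1.83, -1.94 and -1.46 in EAE, with a log2 difference of -0.09 ± 0.20 (limma adjusted p = 0.816). MM9LINCRNAEXON11712-_P1 was at -2.23, -2.33 and -2.72 in PBS and at -2.26, -2.0 and -1.85 in EAE, with 0.39 ± 0.21 (adjusted p = 0.290). Both probes overlapped between the groups.

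At 3 of the 12 exons a single strand was tested, and at 5 neither was. MM9LINCRNAEXON10294-_P1 and MM9LINCRNAEXON11569-_P1 were well above background on all 6 arrays while their plus strands were on none. The scaled level of 10294- was -1.16, -0.54 and -0.75 for PBS, then -1.17, -1.18 and -0.83 for EAE, and that of 11569- was 1.58, 1.28 and 1.48 for PBS, then 1.18, 1.87 and 1.28 for EAE. The groups overlapped at both, with log2 differences of -0.24 ± 0.22 and -0.0044 ± 0.23 (limma adjusted p = 0.529 and 0.993). At 11711 the plus strand was well above background on all 6 arrays and the minus strand on PBS 2 and EAE 3 alone.

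MM9LINCRNAEXON11711+_P1 was the uncalled probe nearest to the threshold. It was measured at 2.46, 4.07 and 3.16 in PBS and at 1.81, 2.14 and 1.69 in EAE. All EAE arrays were below all PBS arrays, and controls were spread widely, with PBS 2 highest. The mean was 3.23 ± 0.81 (SD, n = 3) in PBS and 1.88 ± 0.23 in EAE, a log2 difference of -1.35 ± 0.39 (SE; limma adjusted p = 0.0739). The unscaled signal ranged from 2724 to 9527 in PBS and from 975 to 1453 in EAE. It was past the threshold without PBS 1 (log2 difference -1.73, adjusted p = 0.0414) and not without PBS 2 (log2 difference -0.93, adjusted p = 0.175). It was also past it with normexp (-1.37, adjusted p = 0.0234) and where only probes well above background on all 6 arrays were tested (-1.35, adjusted p = 0.0446).

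The other uncalled probes without overlap were MM9LINCRNAEXON10541+_P1, MM9LINCRNAEXON11806+_P1, MM9LINCRNAEXON11298-_P1 and MM9LINCRNAEXON10343+_P1, all with lower levels in EAE, and 11382-. Exon 10541+ had a log2 difference of -0.59 ± 0.21 (SE), with scaled levels of -1.89, -1.84 and -1.86 on the EAE arrays against -1.14, -1.03 and -1.64 in PBS (limma adjusted p = 0.126). Exon 11806+ was similar, at -0.58 ± 0.20 (adjusted p = 0.116), and 11298- had -0.59 ± 0.26 (0.202). Exon 10343+, a bright probe with an unscaled signal of 1759 to 3025 in PBS and 780 to 1266 in EAE, had -0.46 ± 0.21 (0.204). These differences shrank with normexp for the 3 dimmer probes, to -0.22, -0.20 and -0.12, and stayed at -0.42 for 10343+.

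The remaining 27 uncalled probes had overlapping groups. Bright members among them were MM9LINCRNAEXON10490+_P1 and MM9LINCRNAEXON10569-_P1. Exon 10490+ was at 3.23, 4.19 and 3.87 in PBS and at 3.88, 3.08 and 2.93 in EAE, with a log2 difference of -0.47 ± 0.34 (limma adjusted p = 0.414). Exon 10569- was at 3.38, 3.72 and 3.44 in PBS and at 4.17, 3.51 and 4.59 in EAE, with 0.58 ± 0.29 (adjusted p = 0.250). With quantile normalization in place of the percentile scaling, the log2 differences were -0.72 for 10490+ and 0.33 for 10569-. MM9LINCRNAEXON10888-_P1 had a log2 difference of 0.03 ± 0.19 (adjusted p = 0.945), with scaled levels of -1.15, -1.29 and -1.12 in PBS and -1.16, -0.91 and -1.40 in EAE. The other probes of this kind that were well above background on all 6 arrays had log2 differences from -0.69 to 0.55. Among them, MM9LINCRNAEXON10565+_P1, MM9LINCRNAEXON12036-_P1 and MM9LINCRNAEXON11506+_P1 lay at -0.40, -0.39 and -0.38. MM9LINCRNAEXON11496+_P1, MM9LINCRNAEXON10101+_P1, MM9LINCRNAEXON10105-_P1, MM9LINCRNAEXON11010+_P1, MM9LINCRNAEXON11731-_P1 and MM9LINCRNAEXON11600-_P1 lay between -0.11 and 0.22, and MM9LINCRNAEXON11752+_P1 at 0.55 ± 0.26. Exon 11731- was spread by 1 array, with -1.19, -1.25 and -1.31 in PBS, -1.31 and -1.32 on EAE 1 and 2, and -0.52 on EAE 3. That array was also the one outside the shared scan. In all, 24 of the 33 uncalled probes had a log2 difference between -0.5 and 0.5.

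More uncalled probes had values below 0 than above 0, and this balance turned with normexp. Of the 33, 24 had a log2 difference below 0 and 9 above 0. Of all 40 tested probes 37.5% were above 0, beside 48.5% of all tested probes. For tested probes named for mouse and human lincRNAs it was 42.6% and 38.9%. The median was -0.13 and -0.14 for tested probes named for mouse and human lincRNAs. Over the 40 tested probes it was -0.15, beside -0.02 over all tested probes. It was -0.087 for the 31 probes well above background on all 6 arrays (0.026 over such probes in general), and -0.38 for the 9 that were so on 3 to 5 arrays (-0.26 over such probes). With normexp the median over the 40 was 0.20 and that over all probes 0.14, so both turned sign together. Before scaling, on EAE arrays that were dimmer, 18 of the 40 (45%) had all EAE arrays below all PBS arrays, beside 51.1% of all tested probes. The reverse held for 5 (12.5%), beside 4.30%.

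The 9 probes well above background on 3 to 5 arrays were 11641+, which rose, and 8 that were not called. MM9LINCRNAEXON11658-_P1, MM9LINCRNAEXON11867+_P1, MM9LINCRNAEXON11564+_P1, MM9LINCRNAEXON11622-_P1 and MM9LINCRNAEXON12051-_P1 had log2 differences of -0.42, -0.38, -0.19, -0.18 and -0.05, and each overlapped between the groups. All 5 were above 0 with normexp. Exon 11564+ was well above background on PBS 1, PBS 2 and EAE 3, with an unscaled signal of 33.9, 46.7 and 64.7 there and 5.92 to 15.7 on the other arrays.

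MM9LINCRNAEXON10477+_P1 and MM9LINCRNAEXON10667+_P1 show how wide the spread of dim probes was. Exon 10477+ was the sole member well above background on all 3 PBS arrays and on none of the EAE arrays. Its unscaled signal was 37.9, 23.3 and 59.1 for PBS, then 19.0, 19.4 and 5.71 for EAE. It entered the test through its PBS arrays alone. Its scaled levels overlapped, with PBS 2 at -4.61 below EAE 1 at -3.87 and EAE 2 at -4.08, and the log2 difference was -0.96 as scaled and 0.30 with normexp, so no direction is given. Exon 10667+ had an unscaled signal of 80.4, 85.3 and 23.1 in PBS and 5.49, 23.9 and 62.9 in EAE, and a log2 difference of -0.84 ± 0.76 (adjusted p = 0.520).

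Some probes carry consecutive numbers, and the names do not say whether such exons belong to 1 transcript. The longest run was 11710 to 11712, where MM9LINCRNAEXON11710+_P1 was at background on all 6 arrays, 11711+ had a log2 difference of -1.35 and 11712+ of -0.09. Beside 11382+, which rose, MM9LINCRNAEXON11381+_P1 had an unscaled signal of 68.2, 84.3 and 20.9 in PBS and 16.9, 25.1 and 22.0 in EAE. It was well above background on 2 PBS arrays and on no EAE array, too few to be tested. MM9LINCRNAEXON11060-_P1 and MM9LINCRNAEXON11939-_P1 had log2 differences of -0.47 ± 0.26 and -0.69 ± 0.37 (limma adjusted p = 0.285 and 0.282), while MM9LINCRNAEXON11061+_P1 and MM9LINCRNAEXON11940+_P1 were at background on all 6 arrays. Exon 11060- was well above background on 3 PBS arrays and 1 EAE array. Its log2 difference was -0.15 with a floor for dim spots and 0.17 with normexp.

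The 43 untested probes were well above background on too few arrays to be tested. Of these, 31 passed the background flag on 0 arrays, 37.3% of the 83 probes beside 24.1% of all probes, with unscaled signals of 4.37 to 25.4. The other 12 were well above background on 1 or 2 arrays. Among them 6 were so on PBS arrays alone. MM9LINCRNAEXON11014-_P1, MM9LINCRNAEXON11274+_P1 and MM9LINCRNAEXON11978-_P1 passed on PBS 2, the array with the highest 75th percentile of signal, MM9LINCRNAEXON10495-_P1 and 11381+ on PBS 1 and 2, and MM9LINCRNAEXON11285-_P1 on PBS 1 and 3. A further 3 passed on 1 EAE array alone, and MM9LINCRNAEXON11561-_P1, MM9LINCRNAEXON11661+_P1 and MM9LINCRNAEXON11711-_P1 passed on 1 array of each group. The number of the 83 probes well above background was 44, 46 and 39 on PBS 1 to 3 and 36, 35 and 40 on EAE 1 to 3. As shares of the 83 these made 53.0%, 55.4% and 47.0% for PBS, then 43.4%, 42.2% and 48.2% for EAE. Percentages for all probes were 67.9% to 70.9% in PBS and 58.5% to 65.2% in EAE. Per probe, 14 were well above background on more PBS than EAE arrays, 4 on more EAE arrays and 65 on equal numbers. This count was not made over all probes, where a skew towards PBS was also seen. Of all 60915 probes, 1184 passed on all 3 PBS arrays and on 0 EAE arrays, and 109 did the reverse. Among the 83 probes these numbers were 1 and 0.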

How the data were processed

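Total RNA of each spleen was extracted with TRIzol and labelled by random priming, per the labels' protocols. Per the file headers, Agilent Feature Extraction 11.0.1.1 wrote the intensity files; the authors' processed signal is background-subtracted but not scaled between arrays. The authors also deposited a log2 table, 83 of whose probes are members. It differed from quantile-normalized log2 signals by a median of 0.000446, and its method is not given in the sources used here.

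Negative-named probes (15) were set aside, 138 spots flagged as outliers were left out (0 of members) and none was saturated. Log2 processed signals minus each array's 75th percentile were averaged per probe. The 41178 probes that passed the filter (3 of 6 arrays above background) were fitted by lmFit and eBayes of limma 3.58.1 (R 4.3.3), with group as the only term. Two-sided p-values were adjusted over all of them by Benjamini-Hochberg, at a threshold of 0.05. The fit was tested on simulated data. Strand differences were tested by exact permutation of arrays. Precision is limited by 3 mice per group and, for dim probes, by an intensity near background.

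Members, lists and tests were chosen with earlier results of these data known. Every tested member was eligible to be named, and those called or on both strands are given array by array. Alternatives were quantile normalization, the authors' table, other filters, normexp (offset 50) on median signals, the replicate number or scan as a block and each array left out. A floor for dim spots was added after seeing the data.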

Additional observations from a re-analysis of the deposited data

Results flagged for a closer look

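Of the 43 probes left out of the test, 3 were well above background on an EAE array and on no PBS array. Each rested on 1 spot on 1 array. MM9LINCRNAEXON11009-_P1 had an unscaled signal of 51.9 on EAE 3, with a spot error of 7.15, against 4.97 and 5.47 on the other EAE arrays and 4.65 to 5.37 in PBS. MM9LINCRNAEXON11349-_P1 had 43.5 on EAE 1, with a spot error of 13.1, against 4.51 and 6.03 on the other EAE arrays and 5.08 to 7.34 in PBS. MM9LINCRNAEXON11727+_P1 had 36.5 on EAE 3, with a spot error of 6.39, against 5.65 and 11.3 on the other EAE arrays and 5.89 to 20 in PBS. The reverse was also seen in PBS, where MM9LINCRNAEXON11978-_P1 had 38.8 on PBS 2 and 4.71 and 5.36 on the other PBS arrays.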

How the results depend on the processing

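The scan as a block is the same fit as leaving out EAE 3, so the 14 alternatives were 13 distinct fits. Over these 5 to 8 probes were called, 4 to 6 higher and 1 or 2 lower. Exons 11125+, 10136+, 10664+ and 10664- were called in all 13, and 11641+ in the 12 that tested it. Exon 11382+ was called in 11 and 10171+ in 6. A second lower probe, 11711+, was called in 4, giving 2 lower probes with the filter on all 6 arrays, normexp, the replicate block and without PBS 1. Adjusted p of 11711+ under those settings were 0.0446, 0.0234, 0.0268 and 0.0414. Without the filter on dim probes MM9LINCRNAEXON10294+_P1, which was never well above background, was called and 10171+ was lost (adjusted p = 0.0687), and 2257 of all probes were called with more probes tested. Leaving out each array gave 1 to 2 lower probes and 1412 to 4672 calls over all probes. The replicate block lost 10171+ (adjusted p = 0.0589) and moved the share of higher calls over all probes from 69.7% to 58.2%. Same-numbered arrays did not deviate together (r = 0.15, 0.04 and -0.14), and no pairing was assumed. The strand difference was 0.98 at 11382 and 0.62 at 11641 with normexp, which changed model, signal and offset together. Uncalled probes turned sign as follows, and the cause was not tested. The median over all probes well above background on 3 to 5 arrays turned sign with normexp too. With normexp the log2 differences were 0.27 for 10101+, 0.30 for 10477+, 0.029 for 10565+, 0.14 for 10667+, 0.17 for 11060-, 0.16 for 11496+, 0.38 for 11564+, 0.0059 for 11569-, 0.27 for 11622-, 0.28 for 11641-, 0.068 for 11658-, 0.11 for 11712+, 0.18 for 11867+, 0.0035 for 12036- and 0.29 for 12051-. With the scan as a block they were 0.13 for 10101+, -0.14 for 10105-, 0.078 for 11569-, 0.30 for 11622-, 0.091 for 11641-, -0.065 for 11731- and 0.031 for 12051-. With the floor they were 0.68 for 11564+ and 0.15 for 12051-. Leaving out each array gave -0.21 to 0.13 for 10101+, -0.14 to 0.11 for 10105-, -0.094 to 0.15 for 10888-, -0.0068 to 0.37 for 11010+, -0.21 to 0.048 for 11496+, -1.02 to 0.57 for 11564+, -0.22 to 0.13 for 11569-, -0.48 to 0.30 for 11622-, -0.35 to 0.091 for 11641-, -0.23 to 0.0074 for 11712+, -0.065 to 0.34 for 11731- and -0.28 to 0.11 for 12051-. The ratio of the 75th percentile to the median of negative-named probes was 52.1 and 52.8 on EAE 1 and EAE 2, 76.3 on EAE 3 and 74.8 to 102 in PBS, which limits dim probes.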

Other observations

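The scanner software gives each spot an error, which can be set against the spread between arrays. For the bright probes 10490+, 10569- and 10664+ this error was 10% of the signal on each of the 6 arrays. For such probes a near-constant value is thus set against the spread between arrays. With 1 array per mouse, differences between mice and technical differences between arrays cannot be told apart in this spread. Among the 31 probes well above background on all 6 arrays, the SD between arrays was larger than the mean spot error of the group for 21 probes in PBS and 27 in EAE. The median spot error of these probes was 0.154 on the log2 scale in PBS and 0.177 in EAE, and the median SD between arrays was 0.221 and 0.288. The SD was larger in EAE for 19 of the 31 (61.3%), beside 74.8% of all probes well above background on all 6 arrays, and the EAE arrays also include a second scan. Among the called probes, the SD of 10664- was 0.036 in PBS and 0.29 in EAE, that of 11382+ was 0.13 and 0.67, and that of 11125+ was larger in PBS, at 0.56 against 0.30.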
